A study of Mus musculus with 11 samples.

Results

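The genes described here are 4 secreted proteases of the ADAMTS family (Adamts1, Adamts4, Adamts5 and Adamts9) and 6 components of the perineuronal matrix (Acan, Bcan, Ncan, Vcan, Hapln1 and Tnr). They were picked by gene symbol, as 10 of the 30681 genes in the deposited table, and all 10 passed the filter on low counts that left 16587 genes. The set was drawn up with the comparison of the groups known, in which Adamts1 stood among the lower genes of smallest p. The differences between the groups below are therefore a description of these libraries and support nothing further.

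Polyadenylated RNA was sequenced from the hippocampus of mice aged 6 months, in 6 libraries labelled as a conditional knockout (cKO) of Dclk3, a doublecortin-like kinase, and in 5 wild-type (WT) libraries, 1 hippocampus per library. The labels name the genotypes only as conditional Dclk3 knock out and WT, and give neither the recombinase that made the knockout conditional nor the cells that expressed it. They do not say that each library came from its own animal, so the errors below measure the spread between these samples. The total count ran from 24001828 to 35674490 per library, and replicates of the same group differed by a chi-square of at least 5.71 for each degree of freedom, so none was a copy of another replicate of its group within sampling noise.

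Dclk3 itself did not differ beyond the spread, at 20.1 ± 3.44 CPM (counts scaled to the size of the library) in cKO-labelled libraries and 22.4 ± 3.31 CPM in WT (SD, n = 6 and 5). On the log2 scale the change was -0.15 ± 0.12 (SE). The count covers the whole gene and does not show whether part of it was deleted, so the group is called "labelled cKO" here and every direction is that of the labels. Xist, which coats the inactive X, was at 489.6 to 721 CPM in WT replicates 1, 3 and 4 and at 1.22 to 10.99 CPM in the other 8 libraries. Y-linked genes, in CPM of the total count without TMM scaling, summed to 0.913 to 3.59 in those 3 libraries and to 96.9 to 123.1 in the other 8. By these RNAs WT held 3 female and 2 male libraries and the 6 labelled cKO were male. Genotype and sex are thus partly confounded. Values from the 8 male libraries and from a fit with a sex term are given below for the members they change most. All 8 markers of hippocampal pyramidal and granule cells were expressed, with summed levels of 860 to 993 CPM in cKO-labelled libraries against 856 to 983 CPM in WT.

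Lecticans are chondroitin sulfate proteoglycans that bind hyaluronan at one end and tenascin-R at the other. Link proteins such as Hapln1 fasten them to hyaluronan, and the lattice that results, the perineuronal net, surrounds some neurons, best known from parvalbumin interneurons and, in the hippocampus, CA2 pyramidal cells. Several ADAMTS proteases cut the core proteins of lecticans and so open this matrix. In bulk tissue, fewer cells of a type and less RNA per cell cannot be told apart.

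Among the proteases, Adamts1 had lower values in cKO-labelled libraries, with a fitted difference of -25.5% relative to WT, and the other 3 had nearly the same level in both groups. Adamts1 encodes a secreted metalloprotease that cuts aggrecan and versican. Coordinates here and below are those of mm10. Its gene lies on chromosome 16 (ENSMUSG00000022893, 85793827 to 85803113, minus strand) and has 10 exon blocks that share no base with another annotated gene. The 250 bases before its start site are shown because Adamts1 is the member with the widest gap between the groups (RefSeq, GRCm38.p6, chr16:85803114-85803363, minus strand). They are printed 5′ to 3′ on the strand of the gene, and the capitals mark the matches found.
Adamts1 promoter: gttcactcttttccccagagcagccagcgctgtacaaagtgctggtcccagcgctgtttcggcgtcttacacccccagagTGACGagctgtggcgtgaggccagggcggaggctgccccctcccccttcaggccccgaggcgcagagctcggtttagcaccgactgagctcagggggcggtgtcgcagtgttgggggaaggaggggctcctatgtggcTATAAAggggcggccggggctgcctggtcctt
The first match, TGACG, is the half-site of the cAMP response element and lies at -170 to -166 from the start site. The second, TATAAA, is the core of the TATA box and lies at -32 to -27. Searched on both strands of the same window, TGACG occurs in 17.8% and TATAAA in 12.4% of the 32851 promoters in the table. The whole element TGACGTCA (1.55% of promoters) and the AP-1 letters TGANTCA (6.75%) were not among the letters of this window, and TGACGTCA, where it occurs, also holds TGACG. Of the 8 members with a promoter in the table, Adamts9 also held TGACG and Ncan TATAAA on the other strand.

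Adamts1 had a lowest, median and highest level of 13.8, 14.5 and 16.3 CPM in cKO-labelled libraries. The levels in WT replicates 1 to 5 were 18.4, 19.9, 23.6, 20.8 and 16.1 CPM. Groups without overlap, found for 0.512% of genes with every library labelled cKO below WT and 0.404% with every one above, occurred for 0 of the 10 members. For Adamts1 it was 1 pair that overlapped: 5 of 6 cKO-labelled libraries lay below every WT library, while cKO-labelled replicate 1 lay just above WT replicate 5. The group means were 14.8 ± 1.0 CPM in cKO-labelled libraries against 19.8 ± 2.80 CPM in WT (SD, n = 6 and 5), with a coefficient of variation of 6.79% against 14.1%. The fit put the log2 fold change at -0.42 ± 0.08 (SE; 95% interval -0.60 to -0.25). At an adjusted p under 0.05 edgeR's quasi-likelihood test called 0 of the 10 members, as it called 0% of all 16587 genes. At an unadjusted p under 0.05 it had 1 member, Adamts1, among the 5.35% of genes that were lower. DESeq2 called Adamts1 (adjusted p = 0.0051), as 1 of 67 genes or 0.49% of those it tested. So did edgeR without WT replicate 5 (log2 fold change -0.49), where 0.0844% of genes were called, all lower. With all genes kept, whatever their counts, edgeR also called it, as 1 of 3 genes.

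The 2 male WT libraries were replicates 2 and 5, and the female WT libraries had 18.4 to 23.6 CPM of Adamts1. Within the 8 male libraries the log2 fold change of Adamts1 was -0.29, and it was -0.29 with a sex term. Neither was called (edgeR, adjusted p = 0.84 and 0.70), and DESeq2 with a sex term, which called 0.0241% of genes, did not call it either. With 2 WT libraries left, the difference by genotype and that by sex or by 1 low WT library cannot be told apart. The summed level of 12 immediate early genes, which neurons transcribe shortly after activity, moved with Adamts1: it was 312 to 414 CPM in cKO-labelled libraries against 353 to 670 CPM in WT, and WT replicate 5 was the lowest WT library both for Adamts1 and for the mean log2 level of the list. All 12 immediate early genes had lower values in cKO-labelled libraries, with a median log2 fold change of -0.59, and DESeq2 called 7. Without WT replicate 5 edgeR called 9 of them, beside Adamts1. Their part in the Adamts1 difference was not tested.

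**Figure D1:**
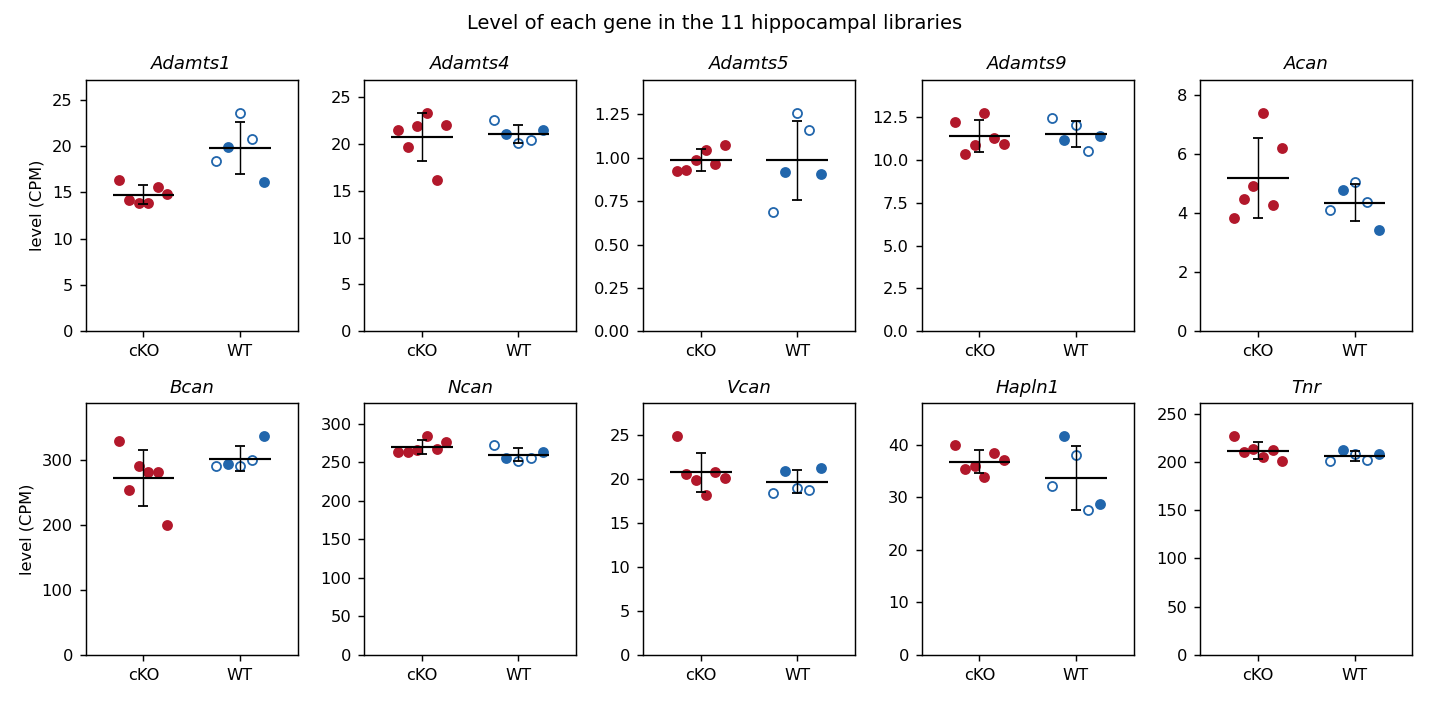
Level in CPM of each of the 10 genes in every library, with the 6 cKO-labelled libraries (red) left of the 5 WT libraries (blue); open circles are female libraries, and the black line and bar are the mean and SD. Adamts1 is lower in 5 of 6 cKO-labelled libraries than in every WT library, and the groups overlap for all 10 genes.

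Adamts4 (ENSMUSG00000006403, chromosome 1, 171250421 to 171260637, plus strand), the protease known as aggrecanase-1 and in the brain as a gene of mature oligodendrocytes, had the highest length-scaled level of the 4. Its lowest, median and highest level was 16.2, 21.7 and 23.4 CPM in cKO-labelled libraries, and the WT levels were 22.6, 21.1, 20.2, 20.4 and 21.5 CPM. The cKO-labelled libraries reached both lower and higher than WT, with replicate 5 lowest and replicate 4 highest. From these values came a log2 fold change of -0.02 ± 0.08 (SE; 95% interval -0.18 to 0.14).

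Adamts5 (ENSMUSG00000022894, chromosome 16, 85856173 to 85901828, minus strand), aggrecanase-2, is the neighbour of Adamts1, on the same strand 53.1 kb away, and was the least expressed member. It had 22 to 43 counts per library. Its level was 0.924 to 1.07 CPM in cKO-labelled libraries, and 0.686, 0.919, 1.26, 1.16 and 0.908 CPM in WT. The WT libraries spanned all those labelled cKO. Its log2 fold change of -0.004 ± 0.18 (SE) has the widest 95% interval of the 10 genes, -0.38 to 0.38. Its sign turned with DESeq2's size factors, at 0.00066.

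Adamts9 (ENSMUSG00000030022, chromosome 6, 92772699 to 92943492, minus strand), which cuts versican and aggrecan, had 10.3, 11.1 and 12.8 CPM as its lowest, median and highest level in cKO-labelled libraries. WT had 12.4, 11.2, 12.1, 10.5 and 11.4 CPM. The groups covered almost the same range. This gave a log2 fold change of -0.01 ± 0.07 (SE; 95% interval -0.17 to 0.14). Antisense genes share 1805 of its exon bases, and whether the counting used the strand is not known.

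The 6 matrix genes had no member called, and 5 of the 6 had slightly higher values in cKO-labelled libraries. Their log2 fold changes ran from -0.15 to 0.26 with a median of 0.07, beside a median of -0.00008 over all 16587 genes. Of those genes 8294 had lower and 8293 higher values. The lowest adjusted p among the 9 members other than Adamts1 was 0.65 (edgeR).

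Acan (ENSMUSG00000030607, chromosome 7, 79053483 to 79115099, plus strand) encodes aggrecan, the lectican of the densest perineuronal nets. Its lowest, median and highest level was 3.83, 4.70 and 7.42 CPM in cKO-labelled libraries, and the WT levels were 4.11, 4.80, 5.05, 4.38 and 3.44 CPM. Replicates 4 and 6 labelled cKO, at 7.42 and 6.21 CPM, stood above every WT library, and the other 4 lay within the WT range. The fit put the log2 fold change at 0.26 ± 0.16 (SE; 95% interval -0.08 to 0.59). It was 0.12 when cKO-labelled replicate 4 was left out. With a sex term it was 0.34, and in the male libraries 0.33. The coefficient of variation, 26.2% in cKO-labelled libraries against 14.4% in WT, was the widest of any member in cKO-labelled libraries. Its 102 to 255 counts per library are few.

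Bcan (ENSMUSG00000004892, chromosome 3, 87987531 to 88000230, minus strand) encodes brevican, which glia and neurons of the adult brain secrete. Its levels in cKO-labelled replicates 1 to 6 were 329.7, 254, 290.3, 282, 281 and 199.95 CPM, and in WT replicates 1 to 5 they were 290.9, 293, 290.2, 300.1 and 336.6 CPM. Of the 6 cKO-labelled libraries 4 lay below every WT library, but replicate 1 was among the highest of all. From these values came a log2 fold change of -0.15 ± 0.10 (SE; 95% interval -0.36 to 0.06). It was -0.07 without cKO-labelled replicate 6 and -0.205 without replicate 1. With a sex term it was -0.207, and in the 8 male libraries -0.212. Astrocyte markers differed between the groups in the opposite direction, with all 8 tested markers higher in value and none at 0. Their summed level was 8577 to 10657 CPM in cKO-labelled libraries against 6948 to 8180 CPM in WT.

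Ncan (ENSMUSG00000002341, chromosome 8, 70093085 to 70120873, minus strand) encodes neurocan, the lectican that the brain makes most strongly during development. Its lowest, median and highest level was 263, 266 and 284 CPM in cKO-labelled libraries, and WT had 273, 255, 252, 255 and 263 CPM. It was the steadiest lectican, with a coefficient of variation of 3.16% in cKO-labelled libraries against 3.20% in WT. This gave a log2 fold change of 0.06 ± 0.04 (SE; 95% interval -0.03 to 0.14).

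Vcan (ENSMUSG00000021614, chromosome 13, 89655312 to 89742509, minus strand) encodes versican, of which oligodendrocyte precursors are a known source. It had 18.2, 20.3 and 24.9 CPM as its lowest, median and highest level in cKO-labelled libraries, and 18.4, 20.9, 19.0, 18.8 and 21.2 CPM in WT. cKO-labelled replicate 1 held the highest level, and the other 5 lay close to the WT range. The log2 fold change was 0.08 ± 0.07 (SE). It was 0.02 without cKO-labelled replicate 1 and turned to -0.03 in the 8 male libraries.

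Hapln1 (ENSMUSG00000021613, chromosome 13, 89539796 to 89611652, plus strand), the link protein gene, lies 43.7 kb from Vcan, on the opposite strand. Its lowest, median and highest level was 33.9, 36.5 and 39.9 CPM in cKO-labelled libraries, and WT replicates 1 to 5 had 32.1, 41.6, 38.0, 27.6 and 28.6 CPM. WT was the more scattered group, with a coefficient of variation of 5.86% in cKO-labelled libraries against 18.1% in WT. The fit put the log2 fold change at 0.13 ± 0.09 (SE; 95% interval -0.07 to 0.33). It was 0.22 without WT replicate 2 and 0.06 without WT replicate 4, and it was 0.067 with a sex term and 0.062 in the 8 male libraries.

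Tnr (ENSMUSG00000015829, chromosome 1, 159523769 to 159931729, plus strand) encodes tenascin-R, which crosslinks lecticans. Its lowest, median and highest level was 201, 212 and 227 CPM in cKO-labelled libraries, and 201, 213, 208, 202 and 209 CPM in WT. cKO-labelled replicate 1 stood above every WT library and replicate 3 just above, and the rest lay within the WT range. The log2 fold change was 0.03 ± 0.04 (SE), so that its 95% interval, from -0.05 to 0.12, leaves out a difference of the size seen for Adamts1. It was 0.017 without cKO-labelled replicate 1, 0.0056 with a sex term and 0.00018 in the 8 male libraries. An annotated antisense gene shares 443 of its exon bases.

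**Figure D2:**
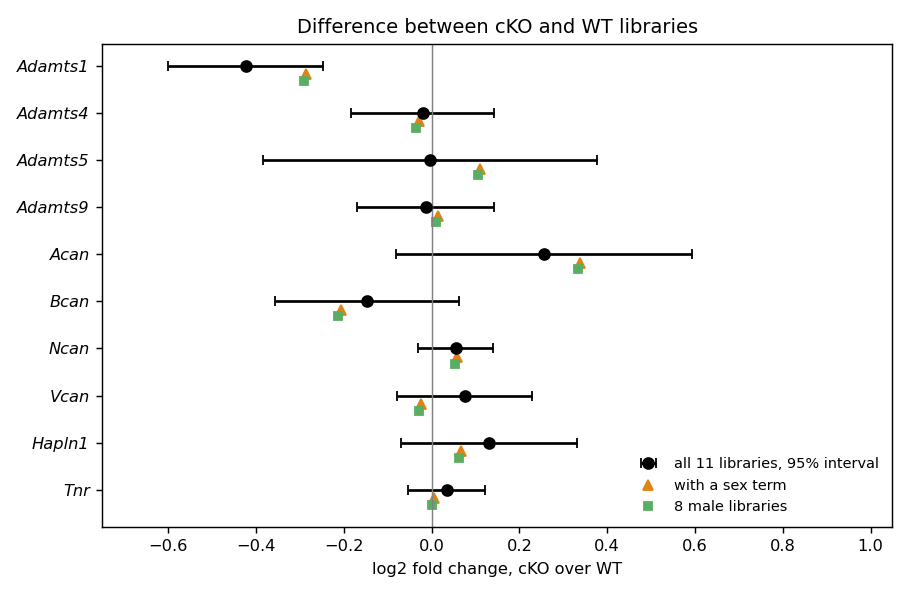
Log2 fold change, cKO-labelled libraries over WT, of each gene from all 11 libraries with its 95% interval (black), from a fit with a sex term (triangles) and from the 8 male libraries (squares). The interval of Adamts1, from -0.60 to -0.25, lies below 0, those of the other 9 genes include 0, and Adamts1 moves to -0.29 with a sex term.

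Scaled by exon length, the 10 genes spanned nearly 3 orders of magnitude, in the same order in both groups. Bcan had the highest length-scaled level, with 67.1 ± 10.6 CPM per kilobase in cKO-labelled libraries against 74.4 ± 4.83 in WT (SD, n = 6 and 5). Ncan followed with 37.5 ± 1.18 and 36.1 ± 1.2 CPM per kilobase in the same order of groups. Tnr had 16.4 ± 0.69 CPM per kilobase in cKO-labelled libraries against 16.0 ± 0.38 in WT. These 3 were separated from each other and from the rest in every library.

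Hapln1 came next, at 6.23 ± 0.36 CPM per kilobase in cKO-labelled libraries against 5.69 ± 1.03 in WT, and overlapped with Adamts4 in WT. Adamts4 had 4.33 ± 0.53 CPM per kilobase in cKO-labelled libraries against 4.40 ± 0.20 in WT. Adamts1 had 2.78 ± 0.19 CPM per kilobase in cKO-labelled libraries against 3.73 ± 0.53 in WT. In cKO-labelled libraries the ranges of these last 2 proteases were apart, with Adamts4 higher in 6 of 6, while in WT they overlapped and Adamts4 was higher in 4 of 5. Vcan came below them with 1.43 ± 0.15 CPM per kilobase in cKO-labelled libraries against 1.36 ± 0.09 in WT. Adamts9 and Acan, below it, could not be ordered in cKO-labelled libraries, at 0.758 ± 0.061 and 0.695 ± 0.182 CPM per kilobase, while in WT Adamts9 was higher in 5 of 5. Adamts5 was last, at 0.0915 ± 0.0057 CPM per kilobase in cKO-labelled libraries against 0.0915 ± 0.0211 in WT. Aggrecan, the best-known component of the nets, was thus the least expressed lectican in this tissue.

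**Figure D3:**
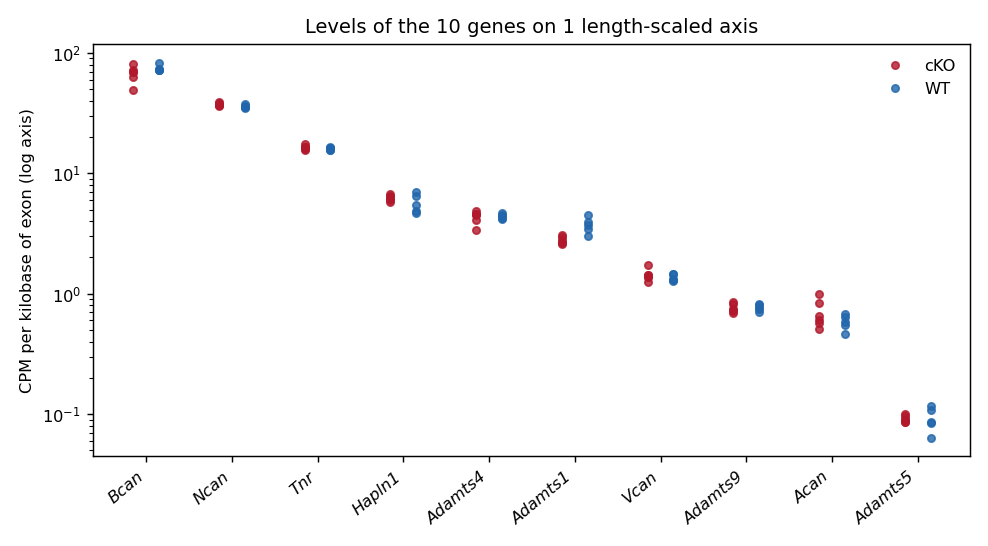
Level of each gene in CPM per kilobase of merged exon on a log axis, 1 point per library, with cKO-labelled libraries (red) left of WT (blue). Bcan, Ncan and Tnr stand apart at the top and Adamts5 at 0.0915 CPM per kilobase in both groups at the bottom.

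Within the lecticans the mixture was dominated by Bcan and Ncan. Bcan made up 62.6 ± 4.33% of the summed length-scaled level of the 4 lecticans in cKO-labelled libraries and 66.1 ± 1.45% in WT (SD, n = 6 and 5). Ncan made up 35.4 ± 4.11% in cKO-labelled libraries against 32.1 ± 1.41% in WT. Vcan held 1.35 ± 0.15% in cKO-labelled libraries against 1.21 ± 0.07% in WT, and Acan 0.661 ± 0.202% and 0.522 ± 0.094% in the same order of groups. cKO-labelled replicate 6 stood apart, with Bcan at 54.8% and Ncan at 42.8%, beyond the 61.8 to 67.7% and 30.5 to 36.1% of the other 5 cKO-labelled libraries. Of the 4 proteases, Adamts1 held 35.1 ± 3.49% of the summed length-scaled level in cKO-labelled libraries and 41.4 ± 4.09% in WT, and Adamts4 held 54.2 ± 3.85% and 49.1 ± 3.81% in the same order. The summed level of the 4 proteases was 7.96 ± 0.52 CPM per kilobase in cKO-labelled libraries against 8.98 ± 0.43 in WT.

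**Figure D4:**
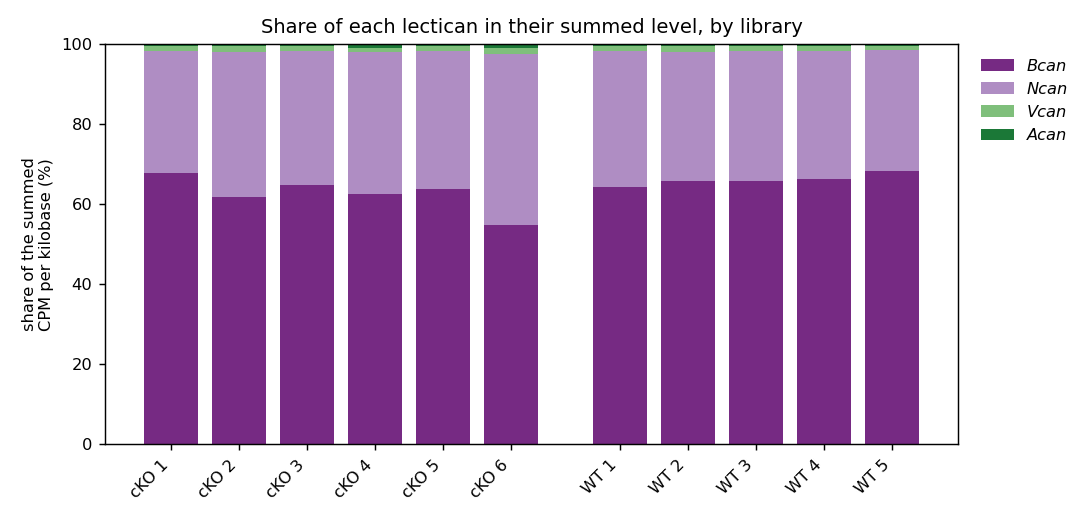
Share of Bcan, Ncan, Vcan and Acan in their summed CPM per kilobase in each library, with the 6 cKO-labelled libraries on the left and the 5 WT libraries on the right. Bcan is the largest share in every library, and cKO-labelled replicate 6 has the lowest Bcan share at 54.8%.

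How the members varied between libraries of the same group was described by the deviation of log2 CPM from the group mean, which takes out the difference between the groups. Such relations across 11 libraries share each library's depth and dissection, and 180 of them were computed between the 10 members and 18 marker or pathway lists. None passed Benjamini-Hochberg adjustment over the 180. Adamts4 was set against the 8 genes of mature oligodendrocytes, such as Mbp and Mag (Pearson r = 0.899, permutation p = 0.0011, adjusted p = 0.099; Spearman rho = 0.891, permutation p = 0.0025, adjusted p = 0.15; n = 11). Without cKO-labelled replicates 4 and 5, the farthest 2 on the marker axis, r was 0.702. Adamts4 was nearly as close, with the opposite sign, to the 6 choroid plexus markers (r = -0.861, permutation p = 0.026, adjusted p = 0.29; rho = -0.700, permutation p = 0.028, adjusted p = 0.34; n = 11). That r was -0.463 without cKO-labelled replicates 5 and 6. Acan was set against 6 markers of CA2 pyramidal cells (r = 0.799, permutation p = 0.016, adjusted p = 0.27; rho = 0.782, permutation p = 0.015, adjusted p = 0.31; n = 11), and r was 0.566 without cKO-labelled replicates 4 and 6. Against the 8 markers of parvalbumin interneurons, the other cells named for these nets, Acan had the opposite sign (r = -0.464, permutation p = 0.24, adjusted p = 0.70; rho = -0.436, permutation p = 0.25, adjusted p = 0.62; n = 11), and r was -0.456 without cKO-labelled replicates 3 and 6. Its relation to the 14 other ADAMTS proteases was slightly closer than that to the CA2 markers (r = -0.809, permutation p = 0.0069, adjusted p = 0.27; rho = -0.909, permutation p = 0.00084, adjusted p = 0.15; n = 11), and r was -0.784 without cKO-labelled replicates 1 and 6.

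Bcan ran against the 8 astrocyte markers, such as Aqp4 and Gja1 (r = -0.847, permutation p = 0.00048, adjusted p = 0.086; rho = -0.827, permutation p = 0.0065, adjusted p = 0.23; n = 11). Without cKO-labelled replicates 2 and 6, r was -0.766. Within the groups it was -0.905 in the 6 cKO-labelled libraries and -0.571 in the 5 WT libraries. Bcan was as close to the 14 other ADAMTS proteases (r = 0.850, permutation p = 0.0049, adjusted p = 0.27; rho = 0.627, permutation p = 0.061, adjusted p = 0.35; n = 11). That r was 0.477 without cKO-labelled replicates 1 and 6. With the 11 inhibitors, cofactors and clearance receptors, r was -0.806. The relation of Bcan is thus not particular to the astrocyte list. Adamts1 and the immediate early genes had r = 0.745 (permutation p = 0.047, adjusted p = 0.37; rho = 0.582, permutation p = 0.063, adjusted p = 0.35; n = 11). That relation rested on WT replicates 3 and 5, without which r was 0.146, and r was 0.124 within the 6 cKO-labelled libraries and 0.881 within the 5 WT libraries. Adamts1 was closer, with the opposite sign, to 18 other partners of the net (r = -0.792, permutation p = 0.015, adjusted p = 0.27; rho = -0.764, permutation p = 0.025, adjusted p = 0.34; n = 11). That r was -0.715 without WT replicates 1 and 5. Between members, 45 pairs were compared and none passed the adjustment. The closest pair was Vcan and Tnr (r = 0.842, permutation p = 0.011, adjusted p = 0.48; rho = 0.736, permutation p = 0.017, adjusted p = 0.39; n = 11), and r was 0.659 without cKO-labelled replicate 1 and WT replicate 5.

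**Figure D5:**
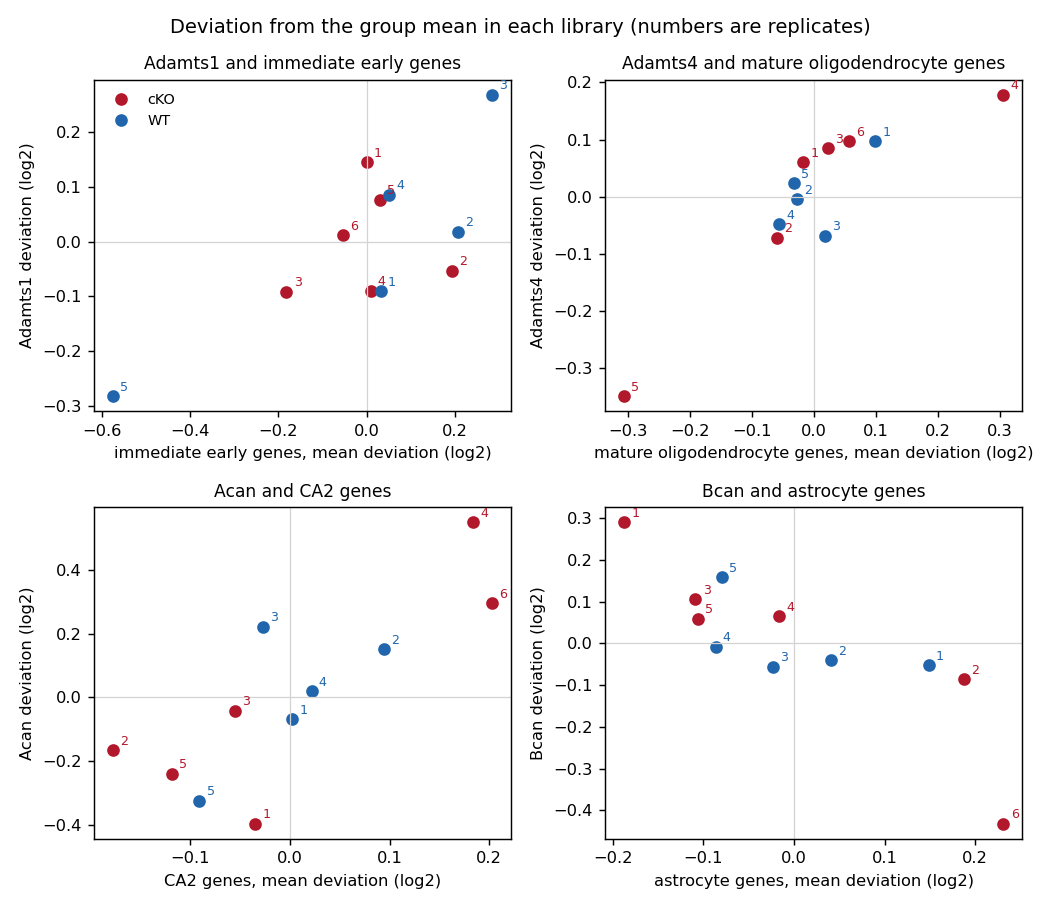
Deviation of log2 CPM from the group mean for Adamts1, Adamts4, Acan and Bcan (y axis) against the mean deviation of a marker list (x axis) in each library, red for those labelled cKO and blue for WT, numbered by replicate. Pearson r is 0.899 in the Adamts4 panel, 0.799 for Acan, -0.847 for Bcan and 0.745 for Adamts1, the last resting on WT replicates 3 and 5.

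Among 14302 other genes with a mean of at least 1 CPM, those whose deviations over the 11 libraries were most like those of Adamts1 were N6amt1 (r = 0.915), Mrpl3 (0.912), Gm2762 (0.908), Stard5 (0.887) and Mthfd2l (0.881). For Adamts4 they were Arg2, Litaf and Prkcq (r = 0.929 to 0.935). For Acan they were Eif1b, Rell1 and Casq2 (r = 0.940 to 0.970), and for Bcan Mib2, Zfp318 and Slc27a1 (r = 0.945 to 0.955). These are the highest of many correlations over few libraries and carry no test.

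Of the remaining ADAMTS proteases 14 of 15 were tested, and Adamts19 was not, with at most 3 counts in a library. Lower values were found in 13 of the 14, with a median log2 fold change of -0.10, and 0 passed edgeR's test in either direction. Adamts10, known from fibrillin microfibrils, had 12.9 ± 2.25 CPM in cKO-labelled libraries against 16.8 ± 2.62 CPM in WT (SD, n = 6 and 5; log2 fold change -0.38 ± 0.12, SE). Adamts17 had 6.79 ± 0.84 and 8.12 ± 0.63 CPM in the same order of groups, a log2 fold change of -0.26 ± 0.10 (SE).

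Inhibitors, cofactors and clearance receptors of these proteases comprised 11 tested genes, of which 3 had lower and 8 higher values and 0 passed edgeR's test. Papln, an ADAMTS-like glycoprotein, had 0.731 ± 0.148 CPM in cKO-labelled libraries against 1.18 ± 0.37 CPM in WT. Timp1, a metalloprotease inhibitor, had 0.066, 1.83, 0.359, 1.02, 0.168 and 15.3 CPM in cKO-labelled replicates 1 to 6, and 0.966, 0.238, 0.352, 0.179 and 0.0973 CPM in WT. Its mean is thus set by cKO-labelled replicate 6. That is the library with the lowest Bcan.

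Other partners of the net comprised 18 tested genes, 7 with lower and 11 with higher values, and 0 passed edgeR's test. Hapln2, the link protein of nodes of Ranvier, had 10.5 ± 1.70 CPM in cKO-labelled libraries against 13.1 ± 1.34 CPM in WT, a log2 fold change of -0.31 ± 0.11 (SE). Has3, a hyaluronan synthase, had 2.23 ± 0.34 CPM in cKO-labelled libraries against 2.76 ± 0.45 CPM in WT. Enzymes that build chondroitin sulfate comprised 21 tested genes, 10 with lower and 11 with higher values, and 0 passed. Chst7, a sulfotransferase, had 4.82 ± 1.0 CPM in cKO-labelled libraries against 3.62 ± 0.81 CPM in WT. Matrix metalloproteases and related proteases comprised 9 tested genes, 5 lower and 4 higher in value, with 0 passing. Mmp3 and Chst13 were too low to be tested. At an unadjusted p under 0.05 these 5 lists held 6 lower and 2 higher genes of 73, beside 5.35% lower and 3.84% higher among all genes tested.

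Markers of the cells best known for such nets overlapped between the groups in their summed level. The 8 markers of parvalbumin interneurons summed to 538 to 648 CPM in cKO-labelled libraries against 572 to 614 CPM in WT, with a median log2 fold change of 0.005. The 6 CA2 markers summed to 267 to 337 CPM in cKO-labelled libraries against 290.2 to 333 CPM in WT, with lower values in 6 of 6 and a median of -0.10. The 8 mature oligodendrocyte markers had a median of 0.02 and the 7 markers of oligodendrocyte precursors one of -0.09. Of vascular and meningeal cells, the 8 endothelial markers had a median of 0.01, the 8 of pericytes and smooth muscle -0.14 and the 8 of meningeal fibroblasts -0.37. None of these marker genes passed edgeR's test and none was at 0. At an unadjusted p under 0.05 the pericyte and smooth muscle list had 4 lower and 1 higher gene, the meningeal list 4 lower and the CA2 list 1 lower. The astrocyte list had 4 higher of 8, the microglia list 4 higher of 6, the thalamus list 3 lower of 7 and the choroid plexus list 1 lower of 6 at the same threshold. Of the thalamus genes Zic1 and Ramp3 were lower in every cKO-labelled library than in every WT library. Anpep of the pericyte and smooth muscle list was so too, as were 0.512% of all genes tested. The 7 thalamus genes were not uniform: 4 had lower and 3 slightly higher values, with a highest log2 fold change of 0.012. DESeq2 called 4 meningeal markers (Slc13a4, Aldh1a2, Slc6a13 and Igf2), 2 thalamus markers (Zic1 and Ramp3) and 1 astrocyte marker (Mlc1). With a sex term it called 1 thalamus marker, Prkcd, and none of the others. The 8 meningeal markers were not uniform, with 6 lower and 2 higher in value. Those that DESeq2 did not call in either fit had log2 fold changes from -0.18 to 0.04 (edgeR). Without WT replicate 2 edgeR called 2 meningeal markers, Slc13a4 and Aldh1a2. The part of these lists in the Adamts1 difference was not tested. All 6 microglia markers had higher values, with a median of 0.18, while the 6 choroid plexus markers had a median of -0.16 and the 7 thalamus markers one of -0.21. Meningeal markers summed to 102 to 190.4 CPM in cKO-labelled libraries against 126 to 193 CPM in WT.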

How the data were processed

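The members and the gene lists around them were chosen with earlier results of these data known, so no comparison of the groups below is independent of that choice. What the authors deposited is 1 table of raw counts, whole numbers by Ensembl gene. The authors named bcl2fastq 2.17.1.14 and the build mm10, per the submitters' processing notes. Neither aligner nor counter nor strand setting is given in the sources used here. Of 30681 genes 30566 matched a symbol. Gene models and exon lengths are from GENCODE M21, and the promoter is from RefSeq.

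The filterByExpr step (minimum count 10) left 16587 genes, scaled by TMM. CPM is relative to the scaled total. Groups were compared by edgeR's robust quasi-likelihood test, 2-sided, with Benjamini-Hochberg adjustment over all 16587 genes and a threshold of 0.05. Each standard error was derived from F. The common biological coefficient of variation was 9.56% and a log2 fold change had a standard error of 0.08 at the median. Log2 CPM used a prior count of 2. Relations between libraries used deviations from the group means and 100000 permutations within groups. On simulated counts for 6 against 5 libraries, run on 16477 genes, edgeR recovered 34% of 50 genes changed 1.25-fold and 73.5% of 49 changed 1.5-fold. There each gene was drawn independently, without variation shared by the genes of a library and without a sex difference between the groups. These rates therefore need not hold for the libraries described here.

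All 10 members are named. Of each other list at most 4 genes of smallest p are named, and for likeness the 3 genes with the highest Pearson r (5 for Adamts1). Not every gene that these rules take is named. The alternatives were other filters, DESeq2's size factors, a block for replicate number, DESeq2, limma-voom, a sex term, the male libraries and each library left out. DESeq2 with a sex term was chosen after seeing the data. Versions were R 4.3.3, edgeR 4.0.16, limma 3.58.1 and DESeq2 1.42.0.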

Additional observations from a re-analysis of the deposited data

Results flagged for a closer look

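Bcan in WT replicate 5 had 336.6 CPM, while the other 4 WT libraries had 290.2 to 300.1 CPM. The gap to its nearest neighbour took up 0.786 of the range of the group, above Dixon's 95% critical value of 0.71 for 5 libraries. Of 20 groups examined, the 10 members in each genotype, 1 was picked out in this way, and chance alone picks out about 1 in 20.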

How the results depend on the processing

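Of the alternatives, DESeq2 called 67 genes, DESeq2 with a sex term 4 and edgeR without a filter on low counts 3, against 0 in the main test. With each library left out the count ran from 0 to 14. Among the members DESeq2 called 1 and edgeR without the filter called 1, in both cases Adamts1. With each library left out 0 to 1 was called. Its log2 fold change kept its sign in all 20 alternatives, from -0.49 to -0.29. Acan, Bcan, Ncan, Hapln1 and Tnr also kept their sign in all 20. The sign of Adamts5 turned with DESeq2's size factors (0.00066), without the filter (0.0046), with limma-voom (0.027), with a sex term (0.11), in the male libraries (0.11) and by DESeq2 with a sex term (0.11). Adamts9 turned with a sex term (0.015), in the male libraries (0.0097) and by DESeq2 with a sex term (0.016). Vcan turned in the same 3 settings (-0.024, -0.029 and -0.023). With each library left out the log2 fold change ran from -0.056 to 0.039 for Adamts4, from -0.11 to 0.10 for Adamts5 and from -0.049 to 0.018 for Adamts9. The stricter filter removed Adamts5. The cause was not tested.

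No pairing by replicate number was seen: the correlation of equal numbers ran from -0.32 to 0.21, and 1 of 5 cKO-labelled libraries correlated best with its own number. So few correlations cannot exclude a weak pairing. With the replicate block edgeR called 0 genes and 0 members, and Adamts1 had a log2 fold change of -0.42. Depth limits Adamts5, with 22 to 43 counts, and Acan, with 102 to 255.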
